A study of Homo sapiens with 8 samples.

Results

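CD33 and 9 SIGLEC genes (SIGLEC1, SIGLEC5, SIGLEC6, SIGLEC7, SIGLEC8, SIGLEC9, SIGLEC10, SIGLEC11 and SIGLEC12) were examined in HL-60 cells for H3K4me3, a histone mark of active promoters, and H3K27ac, a mark of active promoters and enhancers. They were chosen by name as a gene family and are 10 of the 20090 protein-coding genes of the annotation. HL-60 is an established leukemia cell line whose cells mature towards granulocytes under all-trans retinoic acid (ATRA). The ATRA group received 1 µM ATRA for 4 days and the control group the same volume of ethanol, the solvent, with fresh medium and agent added midway. Each mark was measured by ChIP-seq in 2 libraries of each group, 8 libraries in all, from this 1 cell line. The values are the positions of broad peaks that the authors called in each library separately on hg19, so read depth is unknown and the spread is that between 2 libraries that the labels name replicates, which may be technical.

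Siglecs are cell surface lectins that bind sialic acid on glycoproteins and glycolipids of the same or of neighbouring cells. CD33 and its relatives carry an inhibitory tyrosine motif in the cytoplasmic tail, which recruits the phosphatases SHP-1 and SHP-2 (PTPN6 and PTPN11) and damps the activation of leukocytes. CD33 is a marker of myeloid cells and the target of an antibody drug in acute myeloid leukemia, SIGLEC9 and SIGLEC5 are found on neutrophils and monocytes, SIGLEC7 on natural killer cells, SIGLEC8 on eosinophils and mast cells, SIGLEC10 on B cells, SIGLEC11 on macrophages and microglia, and SIGLEC1 (sialoadhesin) on macrophages.

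Of the 10 genes, 8 lie in 1 stretch of chromosome 19 (hg19, chr19:51618163-52143654 with 10 kb on each side), SIGLEC11 lies nearer the centromere on the same chromosome, and SIGLEC1 is on chromosome 20. The family grew by gene duplication, and some start regions are still much alike. Windows of 300 bases, from 270 bases before to 29 bases after the annotated start (TSS), were read from GRCh37. Those of SIGLEC7 and SIGLEC9 were 92.1% identical in a global alignment, and those of SIGLEC8 and SIGLEC12 were 80.2% identical to each other. The CD33 window, a start covered by H3K4me3 peaks in all 4 libraries of that mark, and the windows of these 4 close relatives are shown 5′ to 3′ on the strand of the gene, with matches to 5 short motifs in capitals. CD33 is on the plus strand at chr19:51728050-51728349, SIGLEC7 on the plus strand at chr19:51645286-51645585, SIGLEC9 on the plus strand at chr19:51627893-51628192, SIGLEC8 on the minus strand at chr19:51961681-51961980 and SIGLEC12 on the minus strand at chr19:52005025-52005324. The last 30 bases of each window are the first of the gene's first exon.
CD33: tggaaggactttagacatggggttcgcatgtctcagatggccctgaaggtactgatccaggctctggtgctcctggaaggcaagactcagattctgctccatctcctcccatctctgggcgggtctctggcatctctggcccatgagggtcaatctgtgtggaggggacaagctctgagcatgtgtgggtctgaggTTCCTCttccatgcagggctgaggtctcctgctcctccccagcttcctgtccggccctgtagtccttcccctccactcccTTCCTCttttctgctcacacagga
SIGLEC7: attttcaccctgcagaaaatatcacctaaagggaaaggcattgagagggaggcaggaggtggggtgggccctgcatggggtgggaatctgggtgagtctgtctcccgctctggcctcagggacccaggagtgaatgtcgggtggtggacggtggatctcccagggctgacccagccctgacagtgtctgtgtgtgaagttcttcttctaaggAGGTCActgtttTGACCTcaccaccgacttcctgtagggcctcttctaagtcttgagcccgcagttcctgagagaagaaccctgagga
SIGLEC9: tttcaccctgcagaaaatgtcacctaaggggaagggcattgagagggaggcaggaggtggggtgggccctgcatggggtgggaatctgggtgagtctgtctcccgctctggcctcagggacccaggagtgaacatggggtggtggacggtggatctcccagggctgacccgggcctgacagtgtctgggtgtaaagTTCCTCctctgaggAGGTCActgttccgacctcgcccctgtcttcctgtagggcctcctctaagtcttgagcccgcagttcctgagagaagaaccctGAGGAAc
SIGLEC8: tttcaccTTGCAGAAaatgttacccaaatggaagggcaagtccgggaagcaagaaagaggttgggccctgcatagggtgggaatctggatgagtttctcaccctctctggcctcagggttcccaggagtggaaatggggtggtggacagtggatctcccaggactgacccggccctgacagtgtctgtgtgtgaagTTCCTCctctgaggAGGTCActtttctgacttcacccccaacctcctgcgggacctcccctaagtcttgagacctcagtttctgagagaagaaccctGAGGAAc
SIGLEC12: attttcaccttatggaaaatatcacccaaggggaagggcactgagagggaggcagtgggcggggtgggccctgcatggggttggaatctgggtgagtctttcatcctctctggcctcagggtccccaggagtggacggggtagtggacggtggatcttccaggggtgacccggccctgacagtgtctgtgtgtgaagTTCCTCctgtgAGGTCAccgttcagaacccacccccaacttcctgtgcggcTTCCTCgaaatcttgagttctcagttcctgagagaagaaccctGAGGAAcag

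Both strands were searched for 5 motifs. GAGGAA is the core bound by PU.1, a master regulator of myeloid cells. TTGCNNAA is bound by C/EBP factors, which drive granulocyte maturation. For the RUNX factors TGTGGT was searched. The letters AGATAA stand for the GATA factors of blood progenitors. The half-site of nuclear receptors such as the retinoic acid receptor is AGGTCA. The PU.1 core was present in 6 of the 10 windows and in 27.3% of the windows of all 20090 genes. CD33 held 2 matches and SIGLEC12 held 3. Of the 6, SIGLEC8, SIGLEC9 and SIGLEC12 are close relatives and not separate cases. The half-site was in 4 of the 10 windows (SIGLEC7, SIGLEC8, SIGLEC9 and SIGLEC12) against 13.6% of all genes, and these are the 4 close relatives, whose windows were 80.2% to 92.1% identical, so they are not separate cases. C/EBP matches were in 2 windows (9.40% of all genes), a GATA match in 1 (9.31%), and RUNX matches in 0 (12.5%). The windows held between 2 and 12 CpG with a median of 5.5, and the median over all genes was 17. Only SIGLEC5 reached 10 CpG, as 65.2% of all genes did. A match describes the letters and says nothing of binding.

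The 8 libraries differed in how much of the genome their peaks covered. H3K4me3 peaks covered 62.3 to 63.2 Mb in the ATRA libraries and 47.7 to 59.8 Mb in the control libraries. For H3K27ac the ranges were 64.8 to 86.1 Mb and 28.8 to 54.0 Mb, so a gene's H3K27ac length was longer in the ATRA libraries for much of the genome. MPO, a promyelocyte gene, had both marks on its start in all 8 libraries. CYBB, a gene of mature granulocytes, had both marks on its start in both ATRA libraries of each mark and in 0 control libraries. ITGAM, the integrin CD11b, gained both in the same way, while ELANE, the neutrophil elastase gene, had no peak on its start in any library. HBG1, an erythroid gene, had 0 bp of either mark. The window of the T cell gene CD3E was not empty and held 7270 and 12073 bp of H3K27ac in the ATRA libraries and 0 and 584 bp in the control libraries, with 0 bp of H3K4me3.

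For each gene, the length in bp under the peaks of a library was taken over the gene with 10 kb on each side. Over the H3K27ac libraries, 6 of the 10 genes (60%) had more in both ATRA libraries than in either control library (SIGLEC6, SIGLEC7, SIGLEC9, SIGLEC10, SIGLEC11 and SIGLEC12), and 0 had less in both. Over all 20090 genes, 30.3% were higher in this sense and 2.86% lower, and among the 14618 genes with a peak in any H3K27ac library 41.6% were higher. The median log2 ratio of mean ATRA to mean control length, with 1000 bp added to each, was 1.34 over the 10 genes and 0.18 over all genes. Of all genes, 5472 had no H3K27ac peak in any library and so a ratio of 0, which lowers that median. The log2 ratio of the total H3K27ac length under peaks was 0.87. With 2 libraries against 2 no exact two-sided p can fall below 0.333, so the counts are descriptions. The libraries are bulk samples, in which more cells with the mark and more of the mark per cell cannot be told apart. Because the windows of SIGLEC7 and SIGLEC9 share 14353 bp and those of SIGLEC6 and SIGLEC12 share 3982 bp, the 6 genes are not 6 separate places, and counting each overlapping pair once left 4 higher of 8. With lengths divided by the total length under peaks of the library, 5 of the 6 remained higher, SIGLEC6 overlapped and SIGLEC5 was lower, while 12.9% of all genes were higher and 18.5% lower on that scale. Over the genes alone, without flanks, 4 were higher and SIGLEC6 and SIGLEC7 were not.

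Over the H3K4me3 libraries, SIGLEC11 and SIGLEC12 were higher in both ATRA libraries, and SIGLEC6 and SIGLEC8 were lower in both. Over all genes, 28% were higher and 2.64% lower. With lengths divided by the library total the counts stayed 2 and 2, where 11% of all genes were higher and 16.9% lower. The median log2 ratio was 0.11 over the 10 genes and 0.04 over all genes, of which 6316 had no H3K4me3 peak. The log2 ratio of the total H3K4me3 length under peaks was 0.22. Only CD33 and SIGLEC12 had H3K4me3 on the outermost annotated start in all 4 libraries. SIGLEC10 lacked it there in ATRA replicate 2 only. Its transcript starts lying 161 to 222 bp inside the gene were covered in all 4. In this mark 0 of the 10 genes gained the start in both ATRA libraries and neither control library, as 0.299% of all genes did, and in H3K27ac 1 of the 10 did (SIGLEC12), as 3.02% of all genes did.

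**Figure D1:**
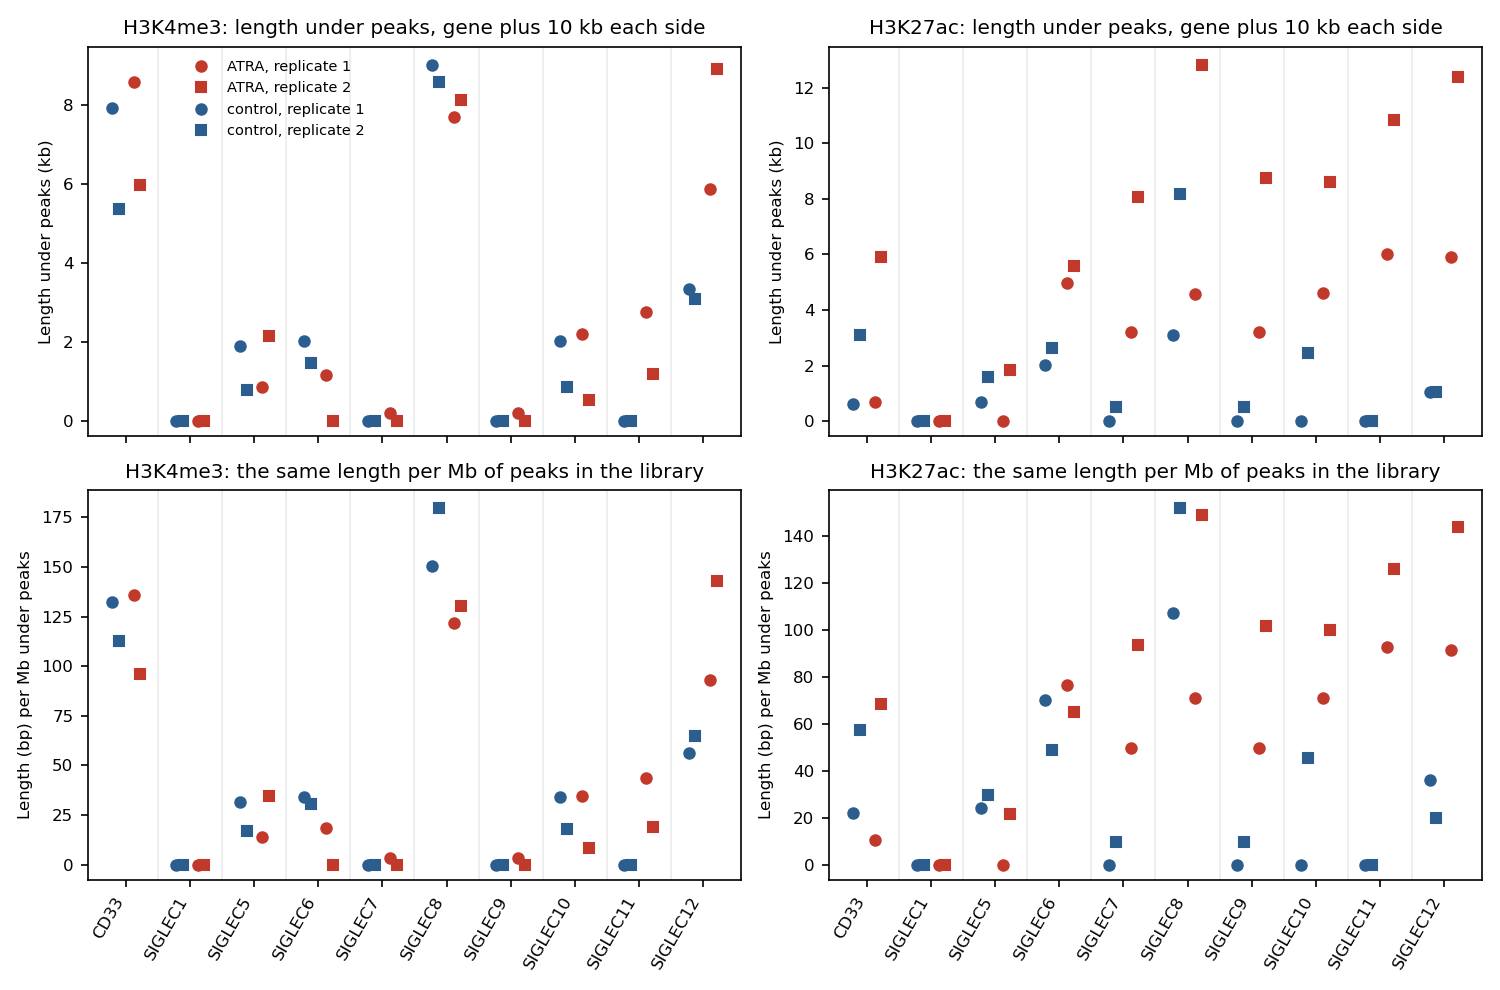
Length under peaks over each gene with 10 kb on each side in the 4 libraries of H3K4me3 (left) and H3K27ac (right), in kb (upper panels) and in bp per Mb under peaks in that library (lower panels). Each point is 1 library, circles for replicate 1 and squares for replicate 2, red for ATRA and blue for control. For H3K27ac the red points of SIGLEC7, SIGLEC9, SIGLEC10, SIGLEC11 and SIGLEC12 lie above the blue points on both scales, and those of CD33 do not.

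CD33 (chr19:51728320-51747115, plus strand) had 1 H3K4me3 peak in each library, lying over its start and first exons. The peak was 8588 and 5979 bp long in ATRA replicates 1 and 2 and 7916 and 5375 bp in control replicates 1 and 2. The 2 groups overlapped, with a mean of 7283.5 ± 1845 bp in ATRA and 6645.5 ± 1797 bp in control cells (SD, n = 2), and replicate 1 of each group was the longer. Within each replicate number the ATRA peak was the longer. Per Mb under peaks in the library the values were 136.0 and 96.0 bp with ATRA and 132.3 and 112.6 bp with ethanol. On that scale the control library had the more in replicate 2. In ATRA replicate 1 the peak ran from 3176 bp before the start to 5411 bp after it, and in control replicate 2 from 1241 bp before to 4133 bp after.

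H3K27ac on CD33 was 684 and 5890 bp in the ATRA libraries and 632 and 3083 bp in the control libraries. Here too the groups overlapped, and replicate 2 of each group had the more. The start itself was covered in replicate 2 of both groups and in neither replicate 1, where 1 short peak lay just inside the gene, 534 to 1217 bp after the start with ATRA and 724 to 1355 bp with ethanol. A second peak of 2315 bp, at the far end of the gene, was called in ATRA replicate 2 alone. Upstream of CD33, over the pseudogene SIGLEC22P and outside the 10 kb flank, H3K4me3 covered 2837 and 4481 bp in the ATRA libraries and 2784 and 2354 bp in the control libraries. Both ATRA values were above both control values, but 2837 and 2784 bp lie close together and these lengths were not divided by the library total. H3K27ac there was 995 and 2900 bp with ATRA and 0 and 1225 bp with ethanol, and the groups overlapped.

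Among all 20089 other genes, those whose lengths within 10 kb of the start were most like CD33's over the 8 libraries were ATP5PD (a subunit of the mitochondrial ATP synthase), the gene ENSG00000284820 and ACSL4 (an acyl-CoA synthetase). Their summed absolute differences from CD33 were 4321, 4517 and 4738 bp.

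SIGLEC12 (chr19:51994481-52005054, minus strand), whose human protein has lost the residue needed to bind sialic acid, was higher with ATRA in both marks. Its H3K4me3 length was 5885 and 8902 bp in the ATRA libraries and 3353 and 3097 bp in the control libraries, a log2 ratio of 0.99. The control libraries each had a peak of about the same place, from 735 and 783 bp before the start to 1872 and 1889 bp after it. With ATRA the peak reached 1474 and 5666 bp before the start and 4196 and 3235 bp after it. Each control library also had a second peak inside the gene, from 2778 to 3522 and from 2969 to 3392 bp after the start, so on that side control coverage reached further than ATRA replicate 2, and before the start both ATRA libraries reached further than both control libraries. H3K27ac was 5916 and 12368 bp in the ATRA libraries and 1042 and 1067 bp in the control libraries, with a log2 ratio of 2.30. Both ATRA libraries covered the start. The control libraries had H3K27ac close by, ending 218 and 246 bp short of it, so within 1000 bp of the start SIGLEC12 was marked in all 4 libraries.

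SIGLEC6 (chr19:52021073-52035110, minus strand) is the neighbour of SIGLEC12 and is known from placental trophoblast and mast cells. Its H3K4me3 lay on the start, with 1178 and 0 bp in the ATRA libraries and 2041 and 1462 bp in the control libraries. Both ATRA values were under both control values. H3K27ac went the other way, with 4957 and 5593 bp in the ATRA libraries and 2012 and 2639 bp in the control libraries, although part of it belonged to the stretch shared with SIGLEC12. Per Mb under peaks in the library the H3K27ac values were 76.5 and 64.9 bp with ATRA and 69.9 and 48.9 bp with ethanol, and the groups overlapped.

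Upstream of SIGLEC6, outside the 10 kb flank, lay an H3K27ac region with the opposite direction, the only 1 of the 8 regions present in all 4 libraries of the cluster that was shorter in both ATRA libraries. In that region peaks covered 2428 and 1747 bp with ATRA and 6118 and 5739 bp with ethanol, and the groups did not overlap. The annotation has no gene there.

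**Figure D2:**
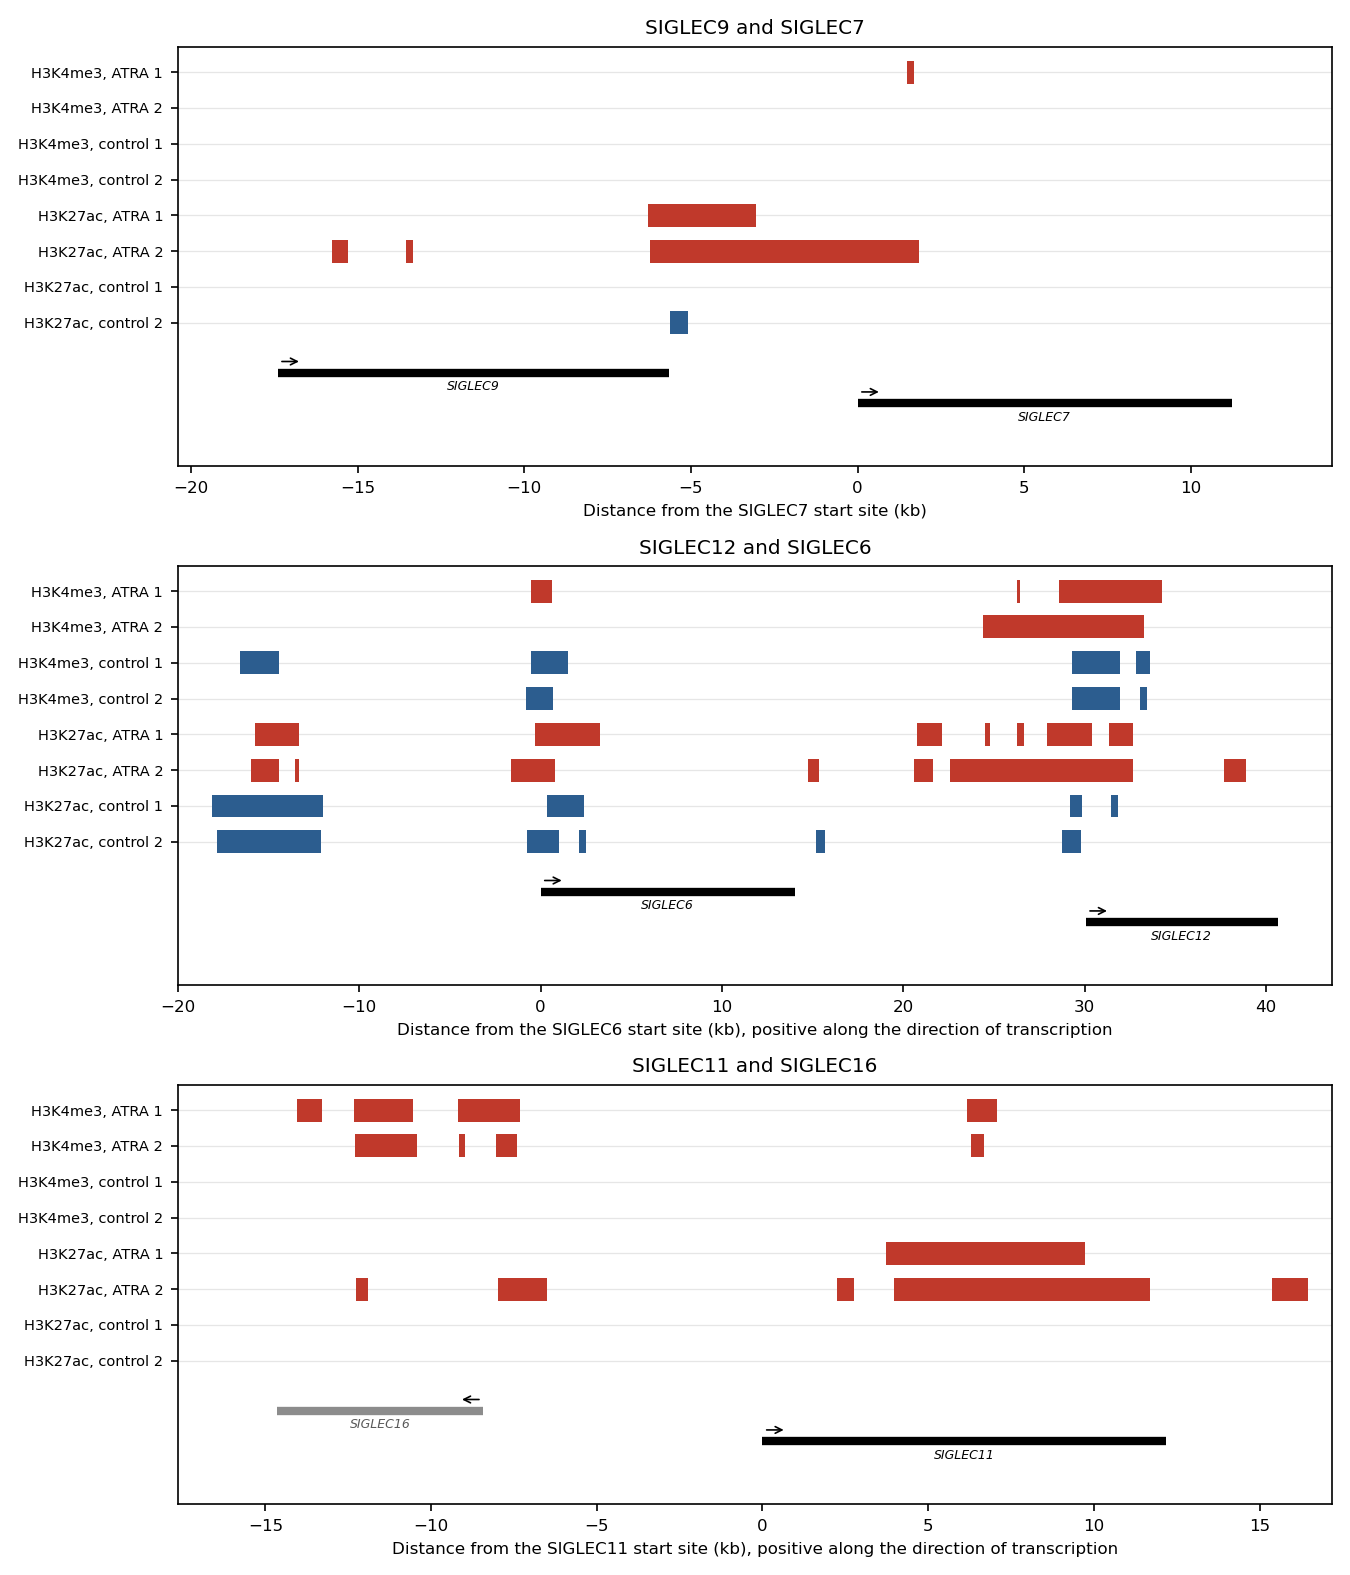
Peaks of the 8 libraries (rows, red for ATRA and blue for control) around SIGLEC9 and SIGLEC7, SIGLEC12 and SIGLEC6, and SIGLEC11 and SIGLEC16, by distance in kb from the start of SIGLEC7, SIGLEC6 and SIGLEC11. Bars are peaks, thick lines at the bottom are gene records and arrows their direction. The control rows are empty in the SIGLEC11 panel, and in the SIGLEC6 panel the control H3K27ac peaks upstream of SIGLEC6 are the longer ones.

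SIGLEC7 (chr19:51645556-51656783, plus strand) and SIGLEC9 (chr19:51628163-51639908, plus strand) lie side by side, and their H3K27ac was mainly 1 region between them. It covered 3221 and 8056 bp of the SIGLEC7 window in the ATRA libraries and 0 and 524 bp in the control libraries. In SIGLEC9 the lengths were 3221 and 8729 bp with ATRA and 0 and 524 bp with ethanol, ATRA replicate 2 having 2 more short peaks, of 473 and 200 bp, inside SIGLEC9. The part common to both ATRA libraries was 3161 bp long (chr19:51639338-51642498), from the end of SIGLEC9 to 3058 bp before the SIGLEC7 start, and only ATRA replicate 2 carried it over that start. The SIGLEC9 start had no peak of either mark in any library. H3K4me3 was nearly absent from both genes, with a single peak of 200 bp in ATRA replicate 1.

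SIGLEC10 (chr19:51913274-51921057, minus strand) had H3K27ac of 4607 and 8592 bp in the ATRA libraries and 0 and 2451 bp in the control libraries, a log2 ratio of 1.77. A region at the 3′ end, chr19:51909223-51913709 when merged over libraries, had peaks of 1890 and 4487 bp with ATRA and 0 bp in both control libraries. Only the ATRA replicate 2 peak ran from the flank into the last part of the gene. In ATRA replicate 1 the peaks ended 1032 bp short of the gene. The start was covered in both ATRA libraries and in control replicate 2. The H3K4me3 lengths of the groups overlapped, with 2201 and 525 bp with ATRA and 2031 and 857 bp with ethanol.

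SIGLEC11 (chr19:50452242-50464429, minus strand) had no peak of either mark in the control libraries. H3K27ac covered 6008 and 10825 bp in the ATRA libraries, most of it inside the gene. The stretch common to both, chr19:50454693-50460449, was 5757 bp long and began 3980 bp after the start, and it lies also in the overlapping coding record ENSG00000269179, so the 2 genes cannot be told apart there. H3K4me3 covered 2765 and 1194 bp in the ATRA libraries, in a peak of 889 and 381 bp inside that stretch and in peaks around the start of the neighbour SIGLEC16, which covered that start in replicate 1 only. The SIGLEC11 start was without a peak in all 8 libraries. The central 300 bases of the stretch, intronic in SIGLEC11, at chr19:50457422-50457721 of GRCh37 on the plus strand, are shown because they were marked in both ATRA libraries and in no control library, with 2 PU.1 cores and 1 C/EBP match in capitals.
Inside SIGLEC11, ATRA H3K27ac: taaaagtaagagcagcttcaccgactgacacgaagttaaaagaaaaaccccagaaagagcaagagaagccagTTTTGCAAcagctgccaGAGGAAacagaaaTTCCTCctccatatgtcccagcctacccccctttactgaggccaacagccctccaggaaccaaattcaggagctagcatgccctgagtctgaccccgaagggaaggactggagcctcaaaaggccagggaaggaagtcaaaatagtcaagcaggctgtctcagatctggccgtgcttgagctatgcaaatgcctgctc

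Such matches are common: among the central 300 bases of all 22454 H3K27ac stretches common to both ATRA libraries, 31.3% held the PU.1 core, 12.5% the C/EBP motif, 18.7% the RUNX motif, 13.7% the GATA motif and 18.7% the half-site.

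SIGLEC16 is the activating partner of SIGLEC11, which it faces head to head, and signals through the adaptor TYROBP. Its H3K4me3 length was 4414 and 2674 bp in the ATRA libraries and 0 bp in both control libraries. The genes are near copies: 25.4% of the 50-base words of SIGLEC16 occur unchanged in SIGLEC11, and how reads were placed there is not given in the sources used here. In the peak on the SIGLEC16 start of ATRA replicate 1, 34.8% of words were shared with SIGLEC11, and in the peaks inside SIGLEC11 that both ATRA libraries had, 0% of words occurred in SIGLEC16.

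SIGLEC8 (chr19:51954101-51961710, minus strand) had the longest mean H3K4me3 length of the 10, although its start had no H3K4me3 peak in any library. The length was 7699 and 8118 bp in the ATRA libraries and 9018 and 8576 bp in the control libraries, a log2 ratio of -0.14. Most of it was a region upstream over the long noncoding RNA gene ENSG00000268957, where the control libraries each had 1 peak, of 10215 and 9724 bp, and the ATRA libraries each had 2 with a gap between them. With a flank of 5 kb or none SIGLEC8 was no longer lower. H3K27ac in SIGLEC8 was 4590 and 12817 bp with ATRA and 3085 and 8181 bp with ethanol, so the groups overlapped. Within each replicate number the ATRA library had the more. Per Mb under peaks in the library the values were 70.8 and 148.8 bp with ATRA and 107.1 and 151.6 bp with ethanol. On that scale the control library had the more within each replicate number.

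SIGLEC5 (chr19:52114213-52133654, minus strand) had little of either mark. H3K4me3 was 868 and 2162 bp in the ATRA libraries and 1900 and 800 bp in the control libraries, and H3K27ac 0 and 1856 bp against 692 and 1599 bp. In each mark the groups overlapped, and the start base was covered in 0 of 8 libraries. SIGLEC14, its activating partner, also overlapped, with 2282 and 3735 bp of H3K4me3 with ATRA against 3495 and 371 bp. SIGLEC1 (chr20:3667617-3693247, minus strand), the member with a long extracellular part and no inhibitory motif, had 0 bp of both marks in all 8 libraries.

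The H3K27ac counts depended on the peaks' deposited −log10 q, whose reliability as a measure of peak strength was not tested. With a deposited −log10 q of at least 5 required of each peak, the H3K27ac count fell from 6 genes to 2 (SIGLEC8 and SIGLEC10). The long peaks inside SIGLEC11 had −log10 q of 1.502 and 1.132, and the SIGLEC12 peak of 10094 bp in ATRA replicate 2 had 1.22. The H3K4me3 counts were the same under that threshold, which 80.2% to 87.4% of the H3K4me3 peaks of a library reached. Of the H3K27ac peaks of a library only 12.8% to 16.9% reached it, so the 2 marks cannot be compared there. The share of all genes at that threshold was not counted.

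The cluster as a whole, 525492 bp with 8 of the genes and 11 other coding genes, had 45983 and 81971 bp under H3K27ac peaks in the ATRA libraries and 21564 and 44591 bp in the control libraries. As bp per Mb under peaks of the library, these were 709 and 952 with ATRA and 749 and 826 with ethanol, so the cluster's share of H3K27ac did not separate the groups. Merged over libraries there were 42 H3K27ac regions in it, of which 4 (9.52%) were in both ATRA libraries only, 8 in all 4 libraries and 20 in 1 ATRA library only. Genome-wide, 8.07% of 53141 regions were in both ATRA libraries only. Of 21 H3K4me3 regions in the cluster, 12 were in all 4 libraries and 0 in both ATRA libraries only, against 3.04% of 19906 genome-wide. Of the 11 other coding genes, 8 were higher in H3K27ac and 0 lower, where 30.3% of all genes were higher and 2.86% lower. In H3K4me3 1 was higher (CEACAM18) and 1 lower (VSIG10L), where 28% of all genes were higher and 2.64% lower. Many windows of these 11 genes share peaks, and their lengths were not divided by the library total. H3K4me3 per Mb was 796 and 822 bp with ATRA and 956 and 839 bp with ethanol.

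**Figure D3:**
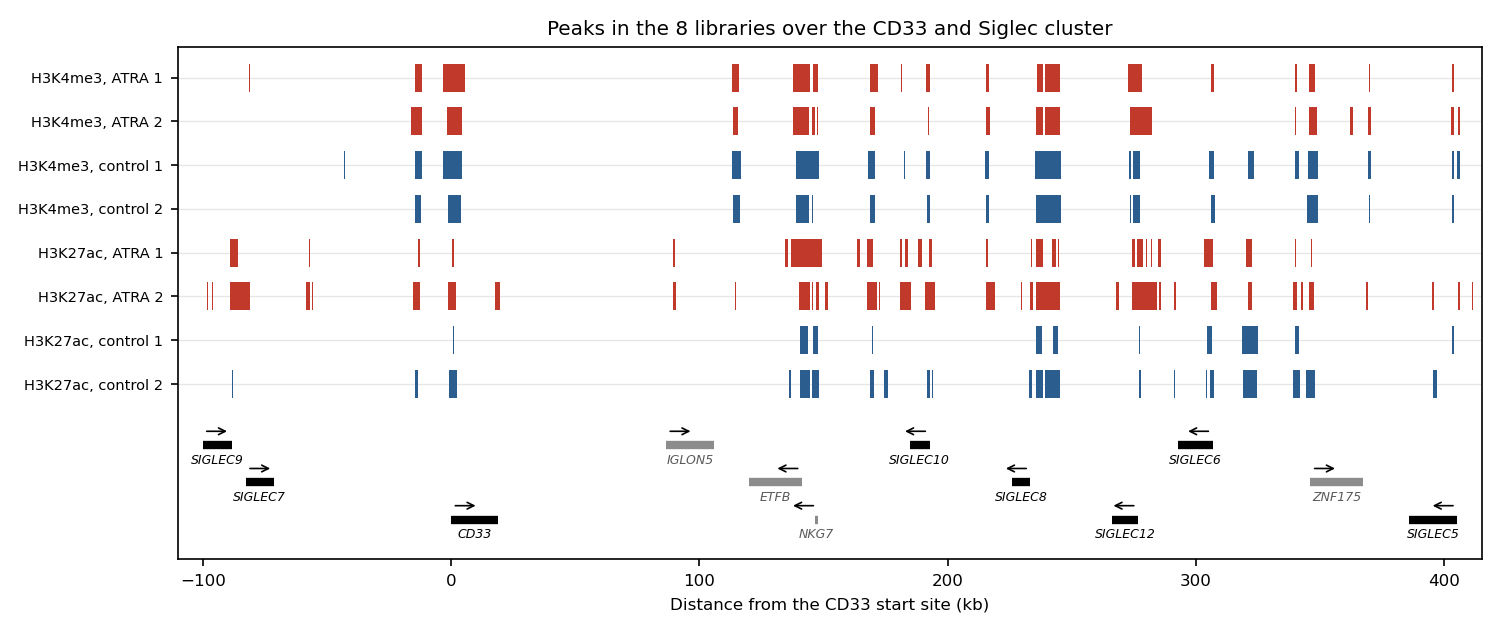
Peaks of the 8 libraries (rows, red for ATRA and blue for control) over the chromosome 19 cluster, by distance in kb from the CD33 start. Black lines are the 8 genes, grey lines 4 of their neighbours, and arrows the direction of transcription. The H3K4me3 rows look alike in most places, 12 of the 21 regions being in all 4 libraries, and the H3K27ac rows of ATRA replicate 2 hold the most peaks (40).

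The other Siglec genes are CD22, MAG, SIGLEC14, SIGLEC15 and SIGLEC16. H3K27ac was higher in both ATRA libraries for 3 of the 5, against 30.3% of all genes. With lengths divided by the library total it was higher for 2 (CD22 and MAG), against 12.9%. CD22, the inhibitory Siglec of B cells, had 7575 and 6867 bp with ATRA and 0 and 1824 bp with ethanol, with no H3K4me3 peak. MAG, a myelin protein next to CD22, had 7305 and 5427 bp against 0 and 1824 bp, mostly in the same peaks. SIGLEC15, which acts in osteoclasts, had 4000 and 3783 bp of H3K27ac against 2357 and 1288 bp, and 1528 and 349 bp of H3K4me3 against 0 bp.

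Genes on which inhibitory and activating Siglecs act were counted in the same way. H3K27ac was higher in 9 of 10 signalling partners (median log2 ratio 1.58), against 30.3% of all genes, and SYK overlapped. With lengths divided by the library total, 6 of the 10 were higher and 1 lower (SYK), against 12.9% and 18.5% of all genes. SOCS3, a suppressor of cytokine signalling, had 16748 and 12814 bp with ATRA and 0 bp in both control libraries. FGR, a Src family kinase of myeloid cells, had 26278 and 32289 bp against 0 and 3957 bp. Both gained H3K27ac on the start in both ATRA libraries. PTPN6, the phosphatase SHP-1, had 31961 and 31736 bp against 25090 and 23950 bp. Per Mb under peaks, PTPN6 had 493 and 368 bp with ATRA and 871 and 444 bp with ethanol, and the groups overlapped. PTPN11, the phosphatase SHP-2, had 10645 and 12391 bp against 2795 and 3169 bp. In H3K4me3, 5 of the 10 were higher, TYROBP, HCST, FGR and SOCS3 among them, and 0 lower, with a median of 0.27. The shares of all genes were 28% and 2.64%. After scaling 4 were higher and 2 lower (PTPN6 and PTPN11), against 11% and 16.9% of all genes. TYROBP and HCST are neighbours whose windows share peaks in both marks, so they are not separate cases in these counts.

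Enzymes that make or remove the ligands showed smaller medians. In sialic acid synthesis and transport, H3K27ac was higher for GNE, NANP and CMAS of 5 genes (median 0.57). The lengths were short for GNE (665 and 298 bp with ATRA, 0 bp with ethanol) and CMAS (1052 and 938 bp against 328 and 763 bp). In H3K4me3 NANS and CMAS were higher, and SLC35A1, the CMP-sialic acid transporter, was lower (4290 and 4320 bp with ATRA, 5848 and 4651 bp with ethanol). Among 20 sialyltransferases, which attach sialic acid to glycans, 10 were higher in H3K27ac and 0 lower (median 0.51), and 5 had no H3K27ac peak. Higher in this mark were 30.3% of all genes and 41.6% of those with a peak. ST3GAL1 had 52801 and 53955 bp against 26714 and 29116 bp, and ST6GALNAC5 6019 and 16903 bp against 0 bp in both control libraries. In H3K4me3 3 of the 20 were higher and 0 lower, against 28% and 2.64% of all genes. After scaling, 2 sialyltransferases were higher and 1 lower in H3K27ac, where 12.9% of all genes were higher and 18.5% lower. In H3K4me3, 2 were then higher and 5 lower, where 11% of all genes were higher and 16.9% lower. Of the 4 sialidases, which remove sialic acid, NEU3 was higher in both marks, and the other 3 overlapped. After scaling, 0 sialidases were higher in either mark, and in synthesis and transport 2 of 5 were higher in H3K27ac and 1 of 5 in H3K4me3.

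The LILR genes are a second family of leukocyte inhibitory and activating receptors on chromosome 19. Of these 10 genes, 6 were higher in H3K27ac (median 1.69) and 5 in H3K4me3 (median 0.65), with 0 lower in either mark. These counts were the same after scaling. Among all genes, 30.3% were higher in H3K27ac and 28% in H3K4me3, and after scaling 12.9% and 11%. The windows of LILRA6 and LILRB3 are nearly the same, and some others overlap, so the counts are not of separate places. Of the 10 LILR genes, 2 (LILRA5 and LILRB2) gained H3K4me3 on the start, with a peak there in both ATRA libraries and neither control library. LILRA5 had 9667 and 8743 bp of H3K4me3 with ATRA and 0 bp in both control libraries, and LILRB2 had 5634 and 3775 bp against 1206 and 0 bp. The difference between the families was not tested.

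**Figure D4:**
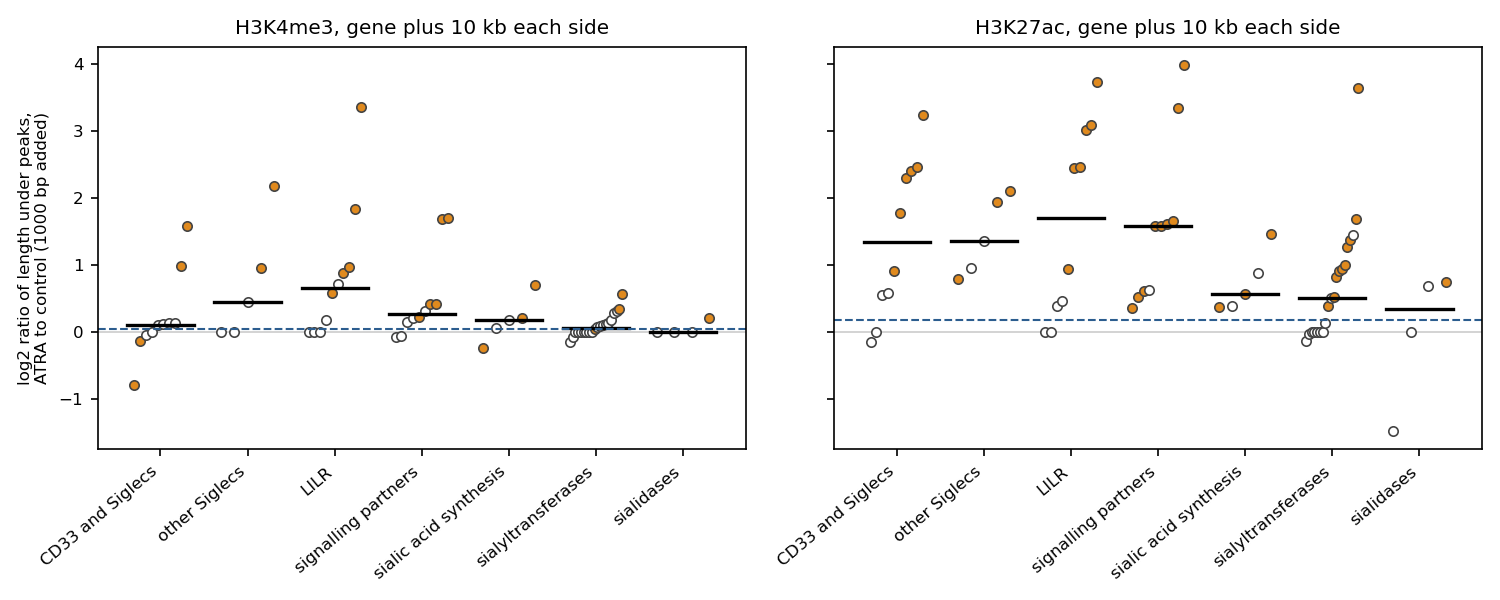
Log2 ratio of mean ATRA to mean control length under peaks (1000 bp added) for each gene of 7 lists, H3K4me3 on the left and H3K27ac on the right. Filled points are genes whose ATRA libraries both lie on one side of both control libraries, black bars the list medians and the dashed line the median of all protein-coding genes (0.04 and 0.18). All list medians for H3K27ac lie above the dashed line, from 0.34 for the sialidases to 1.69 for LILR, and those of the sialidases (0.34), sialyltransferases (0.51) and sialic acid synthesis and transport (0.57) lie below 0.87, the log2 ratio of the total H3K27ac length under peaks.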

How the data were processed

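For each of 2 histone marks, 2 ATRA and 2 control ChIP-seq libraries of HL-60 were used. After adapter removal the authors mapped reads on hg19 (Bowtie) and found broad peaks in each library by MACS2 (tool versions are not given in the sources used here), and whether reads placed at several sites were kept is also not given. Of the deposited columns, peak positions gave all values. The deposited fold and −log10 p columns hold values such measures cannot take and were not used. The deposited −log10 q served only as a threshold of 5. It was below 1 for 15.1% to 26.5% of the H3K27ac peaks of a library, and the deposited score column is 10 times the −log10 q, so the reliability of that threshold was not tested. No peak ran past a chromosome end of GRCh37.

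Genes and starts came from GENCODE release 44 mapped to GRCh37, with the longest protein-coding record for each symbol. Length under peaks was the union of peaks over the gene with 10 kb on each side, and log2 ratios used a pseudocount of 1000 bp. A gene was counted where both ATRA libraries lay on one side of both control libraries. Likeness to CD33 was the summed absolute difference of length within 10 kb of the start over 8 libraries. Sequences were read from GRCh37, and promoter identities came from global alignments. On simulated peak lists, 400 of 400 covered lengths and 400 of 400 classes were recovered. All 10 genes, the related lists and the check genes were named by rule, and the members and lists were chosen with earlier results of these data known. The printed regions and windows were chosen after their values were seen. Some items of the lists and regions are not reported here. Python 3.11.15, numpy 2.4.6, scipy 1.17.1, matplotlib 3.10.9 and Biopython 1.88 were used.

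In the peak names, ATRA and control libraries of 1 number carry a common tag. The difference between replicates in ATRA and that in control cells had a Pearson correlation over 20090 genes of 0.25 for H3K4me3 and 0.63 for H3K27ac. With only 2 pairs, pairing was kept as an alternative. Alternatives were the flank, the pseudocount, the threshold, peak length, peaks in both replicates, scaling to the library total, peak numbers, the start definition, pairing and leaving out each library. Counting genes with shared windows once, and scaling the related lists and all genes to the library total, were added after seeing the data.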

Additional observations from a re-analysis of the deposited data

How the results depend on the processing

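Of 180 recomputed lengths of the 9 genes with peaks, 149 moved by less than the spread between replicates and 31 by as much or more. Among those whose groups did not overlap, 0 reversed. Part of the 180 leave out 1 library, which by construction cannot move the difference between groups by more than this spread, so those values are no check. With numbers of peaks in place of length, 2 directions reversed: SIGLEC8 then had a difference of 1 peak and SIGLEC12 of -0.50 in H3K4me3. The count of genes higher in H3K4me3, 2, became 1 with peaks of at least 1000 bp (SIGLEC11 was lost) and lay between 2 and 6 leaving out each library in turn. It rose to 6 without ATRA replicate 2 and to 4 without control replicate 1. The count lower in H3K4me3, 2, became 1 over the gene alone and with 5 kb on each side, and 0 by number of peaks, with 2 to 3 leaving out each library. The count higher in H3K27ac, 6, was 4 over the gene alone (SIGLEC6 and SIGLEC7 were lost) and became 2 at a −log10 q of 5 and 2 by number of peaks (SIGLEC11 and SIGLEC12), with 6 to 9 leaving out each library, the 9 without ATRA replicate 1. The count lower in H3K27ac, 0, became 1 over the gene alone and 1 when scaled to the library total (SIGLEC5 in each case), with 0 to 1 leaving out each library, the 1 without ATRA replicate 2. The H3K27ac gain on a start, 1 gene, became 0 within 1000 bp of the start, 0 over all annotated transcript starts and 0 at a −log10 q of 5, with 1 to 3 leaving out each library, the 2 without ATRA replicate 1 and the 3 without control replicate 2. The H3K4me3 gain stayed at 0 in each alternative.

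The median log2 ratio of H3K4me3, 0.11, was 0.036 over the gene alone, -0.00060 when scaled to the library total, and between -0.053 (without control replicate 2) and 0.26 leaving out each library. That of H3K27ac, 1.34, was 1.74 with a pseudocount of 100 bp, 1.08 with 2000 bp, 0.64 over the gene alone, 0.78 when scaled, 1.52 at a −log10 q of 5, and between 0.96 and 1.85 leaving out each library. The cause of these changes was not tested beyond how each alternative is built. Comparing within replicate numbers (the replicate block), H3K4me3 was higher for 3 genes, CD33 added, and lower for 2. H3K27ac was higher for 8, CD33 and SIGLEC8 added, and the medians of the 2 marks were 0.10 and 1.45. Per Mb under peaks in the library, CD33 and SIGLEC8 were not higher within both replicate numbers in the marks where they were added. With 2 libraries per group and unknown read depth, a place without a peak may still carry the mark.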
